A study of Mus musculus with 130 samples.

Results

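A set of 134 genes had a lower transcript level on day 2 of treatment with UNC0638 and a level near the starting one on days 4 and 14, in mouse embryonic stem cells of the TT2 line. Members were chosen from TPM, a transcript level scaled for gene length and library total, in 4 libraries, the vehicle control and days 2, 4 and 14. A gene was taken when it had at least 5 TPM in the control, when (TPM + 1) on day 2 was at most 0.6 of the control, and when (TPM + 1) on days 4 and 14 was each at least 0.8 of the control. Myc, Mycn, Dnmt3b and symbols starting with Krt, Ccnd, Hist, Rpl, Rps or mt- were left out, which removed 3 genes past the thresholds. The 134 members stood among 8051 genes with at least 5 TPM in the control and 52550 genes in each file, so 1.66% of the expressed genes met the whole rule. Their levels in these 4 libraries made them members and are given as a description.

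RNA-seq of 10 libraries was used, each the only library of its group, so no spread between replicates could be estimated and no test of a difference between conditions was possible. The UNC0638 libraries came from TT2 cells (strain C57BL/6xCBA) collected on day 2, 4 or 14, with a DMSO vehicle library as Control. Titles give 250 nM as the dose and the protocol text 250 µM, and no label tells if treatment went on to day 14. G9a CM is 1 clone of TT2 that lacks the endogenous G9a (G9a-/-) and carries a G9a transgene with the changes Y1120V and Y1207F, and the library labelled G9a/GLP DKO is 1 clone of TT2 labelled as lacking G9a and GLP; WT TT2 is their wild type. The libraries labelled Dnmt1/3a/3b TKO and Dnmt3a/3b DKO are set against WT J1, all of strain 129S4/SvJae, and their labels name the DNA methyltransferases that these lines lack. All cells grew on gelatin in medium with fetal bovine serum and LIF. Ehmt2, which encodes G9a, had 13.0 TPM in the library labelled G9a/GLP DKO and 22.2 TPM in G9a CM, against 10.1 TPM in WT TT2. Ehmt1, which encodes GLP, had 6.71 TPM in the library labelled G9a/GLP DKO and 30.7 TPM in G9a CM, against 23.9 TPM in WT TT2, so the Ehmt2 level did not go with the label of the first library. Dnmt1 had 2.04 TPM in the library labelled Dnmt1/3a/3b TKO and 25.4 TPM in that labelled Dnmt3a/3b DKO, against 15.7 TPM in WT J1, and Dnmt3b had 0.81 and 1.02 TPM, against 5.3 TPM. Dnmt3a had 4.49 and 5.07 TPM, against 4.66 TPM in WT J1, so its level did not go with these labels. The labels do not say which part of a gene was removed, and a transcript left over from it would still be counted.

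G9a and GLP are partner enzymes that place repressive methyl groups on the tail of histone H3 in euchromatin, and UNC0638 is a small molecule that competes with the histone substrate at their active site. In embryonic stem cells their loss is best known for raising silenced genes and retroelements. A fall of transcripts is therefore not the change these enzymes are usually described by.

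Promoter sequence is shown for 6 members, 3 of the largest falls and 3 regulators described further on, whose windows lie outside every annotated gene span. Each line holds the 250 bases before the transcript start, 5′ to 3′ on the gene's strand, from RefSeq (GRCm38.p6). Capitals mark the GC box (GGGCGG) and the CCAAT box (CCAAT) on either strand. The windows are chr6:86526190-86526439 (minus strand) for Pcbp1, chr17:56757549-56757798 (minus strand) for Nrtn, chr11:101315963-101316212 (plus strand) for Psme3, chr2:3474987-3475236 (minus strand) for Suv39h2, chr7:144861136-144861385 (plus strand) for Fgf4 and chr4:136143572-136143821 (plus strand) for Id3.
Pcbp1 promoter: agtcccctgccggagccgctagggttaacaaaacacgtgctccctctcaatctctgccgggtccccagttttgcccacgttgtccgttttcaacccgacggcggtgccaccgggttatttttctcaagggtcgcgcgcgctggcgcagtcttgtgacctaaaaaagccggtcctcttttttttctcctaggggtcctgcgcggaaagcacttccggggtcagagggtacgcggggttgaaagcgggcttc
Nrtn promoter: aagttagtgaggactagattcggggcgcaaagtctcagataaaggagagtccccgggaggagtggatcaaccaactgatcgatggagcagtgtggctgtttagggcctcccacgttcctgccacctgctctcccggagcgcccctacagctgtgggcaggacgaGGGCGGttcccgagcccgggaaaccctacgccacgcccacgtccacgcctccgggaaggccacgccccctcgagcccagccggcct
Psme3 promoter: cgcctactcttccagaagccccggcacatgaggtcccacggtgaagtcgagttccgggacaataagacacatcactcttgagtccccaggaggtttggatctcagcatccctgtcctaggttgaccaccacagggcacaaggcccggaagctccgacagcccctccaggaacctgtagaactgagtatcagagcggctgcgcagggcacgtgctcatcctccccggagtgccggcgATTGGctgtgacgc
Suv39h2 promoter: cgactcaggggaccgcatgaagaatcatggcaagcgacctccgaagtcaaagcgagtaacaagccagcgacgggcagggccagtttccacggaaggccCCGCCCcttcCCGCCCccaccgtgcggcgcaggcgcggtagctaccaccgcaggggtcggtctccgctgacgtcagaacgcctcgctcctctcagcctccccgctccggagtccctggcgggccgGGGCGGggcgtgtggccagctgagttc
Fgf4 promoter: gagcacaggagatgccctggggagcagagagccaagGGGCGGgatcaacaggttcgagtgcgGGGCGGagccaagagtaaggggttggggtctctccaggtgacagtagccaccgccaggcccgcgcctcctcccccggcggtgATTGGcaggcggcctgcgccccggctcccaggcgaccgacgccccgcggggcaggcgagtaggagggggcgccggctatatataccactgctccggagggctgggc
Id3 promoter: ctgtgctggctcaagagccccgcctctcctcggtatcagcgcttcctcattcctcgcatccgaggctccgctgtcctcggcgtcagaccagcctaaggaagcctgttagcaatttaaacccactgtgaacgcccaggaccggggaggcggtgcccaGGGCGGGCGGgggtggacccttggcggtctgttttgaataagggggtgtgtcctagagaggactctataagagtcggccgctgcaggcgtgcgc

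The 6 windows held from 0 to 3 GC boxes and from 0 to 1 CCAAT boxes, and their GC content ran from 59.2% for Pcbp1 to 71.2% for Fgf4. Promoters of 300 bases (250 before and 50 after the start) were found for 105 of the 134 members and for 6331 of the 8051 expressed genes. A GC box was present in 68.6% of the members' promoters and 66.6% of all expressed genes' promoters. A CCAAT box was present in 46.7% of the members' promoters and 40.8% of all. The E-box CACGTG was present in 12.4% and 11.3%, and TATAAA in 8.57% and 6.51%, each for members and then for all expressed genes. The activator protein site TGACTCA was present in 1.9% of members and 3.06% of all, and the TCF/LEF site CTTTGAT in 1.9% of members and 2.46% of all. Both strands were searched, and a base could belong to more than 1 match. A match is a description of these letters, not a bound site.

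On day 2 the members' (TPM + 1) ratio to Control ran from 0.0304 to 0.599 with a median of 0.484, while the median log2 ratio of all 8051 genes was 0.16. A ratio of at most 0.6 on day 2 was found for 2.88% of the expressed genes, 232 in number, and the members were 57.8% of them. Of the other genes at that level, 27 were under 0.8 of Control on day 4 only, 24 on day 14 only and 47 on both. The share at or above 1/0.6 of Control on day 2 was larger, at 7.78%. By CPM, counts scaled by library size and trimmed mean of M-values (TMM) factors, the order was the other way, with 5.59% at most 0.6 and 2.45% at or above 1/0.6. 74 members were at or below 0.5 of Control on day 2 and 12 were at or below 0.25. The members' median ratio was 1.02 on day 4, with a range of 0.809 to 4.58, and 1.2 on day 14, with a range of 0.803 to 3.92. 108 members were at or above Control on day 14 and 102 were higher on day 14 than on day 4. The rule left out genes under 0.8 of Control on these days, which raises the first count. Shares over all expressed genes were not taken for these 2 counts, so they describe the members only. A ratio of at least 1/0.6 was reached by 20 members on day 14, where 1.95% of the expressed genes reached it, and by 4 members on day 4, where 0.981% did. By CPM these were 8 members on day 14 (5.97%), against 0.857% of the expressed genes, and the members' median log2 ratio was 0.10, against -0.10 over all. On day 14 1.78% of the expressed genes were at most 0.6 of Control, and on day 4 1.91%; the rule allowed no such member. By TPM the median log2 ratio on day 14 was 0.27 over the members and 0.05 over all genes. The limit of 0.8 on days 4 and 14 applied to the members and not to the other expressed genes. It therefore raises the members' shares at or above 1/0.6 and their medians too, and these values are a description.

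**Figure D1:**
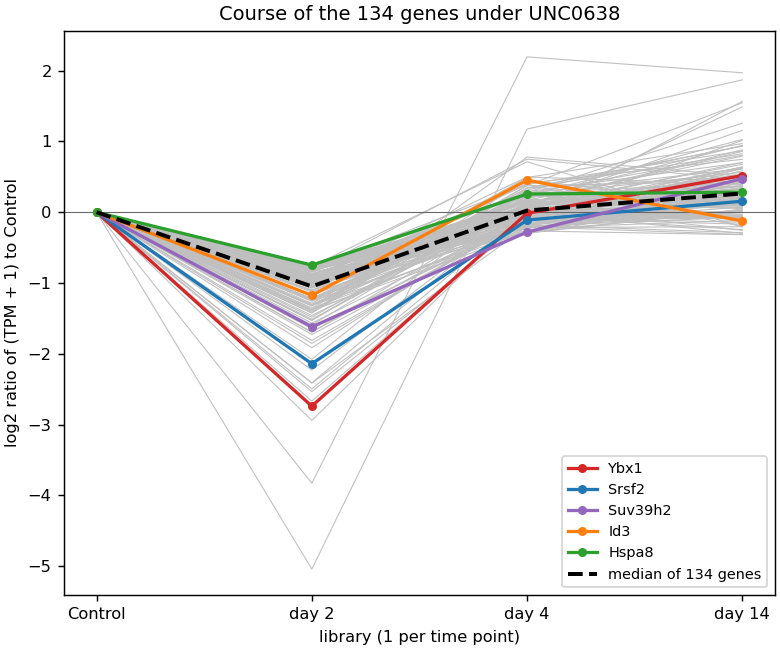
Log2 ratio of (TPM + 1) to Control for each of the 134 genes (grey lines) in Control, day 2, day 4 and day 14, 1 library each, with 5 genes in colour and the median dashed. The median lies at -1.05 on day 2, 0.02 on day 4 and 0.27 on day 14; the day 2 dip and the return were set by the rule.

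The 10 largest falls among members with a standard symbol and at least 10 TPM in Control were in genes of different roles. Wrnip1, an ATPase that acts at stalled replication forks (ENSMUSG00000021400, GRCm38 chr13:32802030-32822610), had 55.0 TPM in Control, 6.30 TPM on day 2, 55.5 TPM on day 4 and 52.3 TPM on day 14. Ybx1, a cold-shock protein that binds messenger RNA and DNA, had 1635 TPM in Control, 244 TPM on day 2, 1617 TPM on day 4 and 2339 TPM on day 14. Pcbp1, an RNA-binding protein of poly(C) tracts and a chaperone of iron, had 537 TPM in Control, 91.9 TPM on day 2, 499 TPM on day 4 and 508 TPM on day 14. In these 3 genes the day 2 library stood far below the other 3, which lay close together except for the higher day 14 value of Ybx1. Gclm, the modifier subunit of the enzyme that starts glutathione synthesis, had 153 TPM in Control, 26.2 TPM on day 2, 155 TPM on day 4 and 166 TPM on day 14. Nrtn, the growth factor neurturin, had 29.9, 4.80, 25.9 and 38.3 TPM in Control and on days 2, 4 and 14. Riox1, a nucleolar oxygenase, had 36.5, 6.06, 40.2 and 37.9 TPM in the same order. All 3 had day 2 levels under 0.2 of Control, and their levels on days 4 and 14 were above Control except that of Nrtn on day 4.

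Psme3, an activator of the nuclear proteasome, had 213 TPM in Control, 44.5 TPM on day 2, 227 TPM on day 4 and 340 TPM on day 14. Srsf2, a serine- and arginine-rich splicing factor, had 731, 165, 677 and 814 TPM in the same 4 libraries. Ubfd1, a protein with a ubiquitin-like domain, had 38.5, 8.36, 49.1 and 74.4 TPM. Day 14 was the highest of the 4 for all 3 genes, by far for Psme3 and Ubfd1 and by little for Srsf2. Tcf3, which encodes the E-protein E2A (a partner of basic helix-loop-helix factors), had 92.1 TPM in Control, 23.7 TPM on day 2, 92.9 TPM on day 4 and 92.5 TPM on day 14. The Tcf3 levels in Control and on days 4 and 14 differed by less than 1 TPM.

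**Figure D2:**
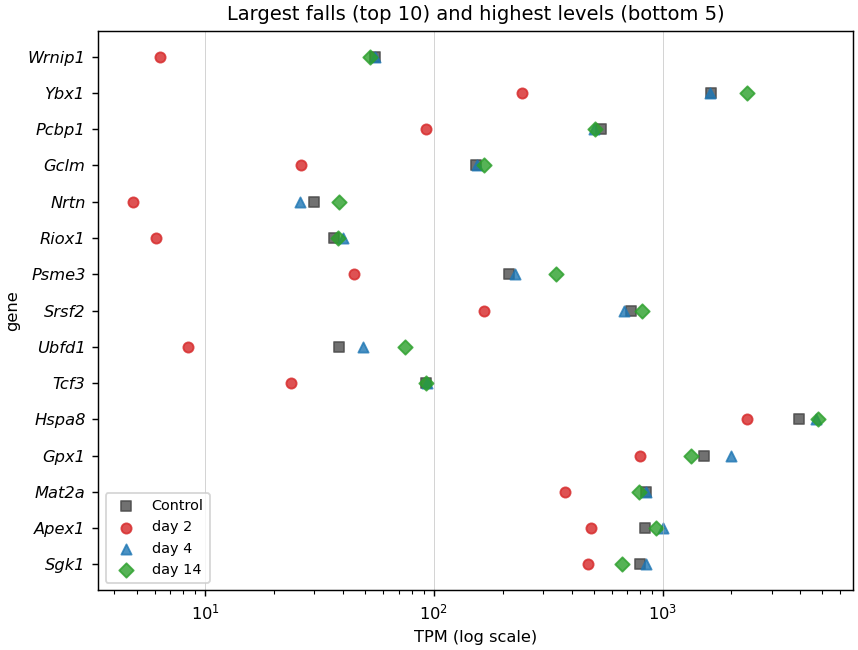
TPM on a log scale of the 10 members with the largest fall (top) and of 5 highly expressed members (bottom) in Control (square), day 2 (circle), day 4 (triangle) and day 14 (diamond), 1 library each. Wrnip1 had 6.30 TPM on day 2 against 55.0 TPM in Control, and Hspa8 2350 TPM against 3946 TPM; in every row the day 2 circle is the lowest of the 4.

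The reads behind these ratios varied. Wrnip1 had 177 reads on day 2 against 1363 in Control, which gave a count ratio of 0.0889 with an exact 95% interval of 0.0755 to 0.104 after TMM scaling. Ybx1 had 4292 reads on day 2 against 24571 in Control, a scaled ratio of 0.120 with an interval of 0.116 to 0.124. These intervals cover counting error only, since PCR copies lack molecular identifiers and 1 library shows nothing of the spread between cultures. The interval lay below 1 for 131 of the 134 members and for 45% of the expressed genes, a count that the choice of the members by the same libraries fixes. The other 3 were Gm24451, Gm26205 and Gm7331, with few or no reads. 7 members in all were poorly measured, with an effective length under 100 bases, under 30 reads in Control or a posterior SD above 20%. They were AY036118, Gm17122, Gm24451, Gm25745, Gm26205, Gm7331 and Rab26os, and AY036118, a noncoding RNA with 242 reads in Control and 0 on day 2, gave the lowest ratio of the whole set.

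The gene length assigned to a gene can differ between libraries when the transcripts used for it differ, and TPM divides by that length. The effective length on day 2 was at least 1.2 times that in Control for 11 members, 8.21% of them, and for 3.14% of all expressed genes. These were Zfp106, Snx27, Srrm2, Rapgef5, Zbtb44, Desi2, Ubfd1, Mlec, Hnrnpu, Ptges2 and Fbxo28. For 3 of them the scaled count ratio was above 0.6. Zfp106, a zinc finger protein, had 1638 reads on day 2 against 1318 in Control, a scaled ratio of 0.850, and its effective length on day 2 was 1.81 times that in Control. Snx27, a sorting nexin of endosomes, had 529 reads on day 2 against 528 in Control, a scaled ratio of 0.686, with an effective length 1.55 times that in Control. Rapgef5, a Rap guanine nucleotide exchange factor, had 192 reads on day 2 against 217 in Control, a scaled ratio of 0.605. Over all members the median scaled count ratio was 0.377, against 0.918 over all expressed genes, and it was at most 0.6 for 130 members.

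The most abundant members held housekeeping and stress roles. Hspa8, the constitutive Hsc70 chaperone, had 3946 TPM in Control, 2350 TPM on day 2, 4713 TPM on day 4 and 4803 TPM on day 14. Gpx1, a glutathione peroxidase, had 1523, 793, 1992 and 1329 TPM in the same libraries. Mat2a, which makes S-adenosylmethionine, the methyl donor of histone and DNA methyltransferases, had 843, 375, 843 and 786 TPM. Day 2 was the lowest library for each, and the order of the other 3 libraries differed from gene to gene. Apex1, the abasic-site endonuclease of base excision repair, had 842, 487, 1006 and 933 TPM. Sgk1, a kinase induced by serum and glucocorticoids, had 795, 470, 848 and 665 TPM. Gm15459, a pseudogene, had 1032, 606, 1136 and 1199 TPM, and Gm25745, of which 31 reads in Control stood behind 944 TPM, was too short to be measured. Reads of the 5 pseudogene members (Gm10282, Gm15459, Gm7331, Gm8355 and Ybx1-ps2) may belong to their parent genes. Ybx1-ps2 had 5.52, 0.97, 5.0 and 9.05 TPM, low on day 2 as Ybx1 was.

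Gene groups given next were put together after the members were seen, so their counts describe these genes and no more. Of 12 serine- and arginine-rich splicing genes with at least 5 TPM in Control, 3 were members, where 1.66% of all expressed genes were. Besides Srsf2, Srsf1 had 73.4 TPM in Control, 33.0 TPM on day 2, 74.98 TPM on day 4 and 93.1 TPM on day 14. Srsf6 had 409, 218, 419 and 431 TPM. The day 2 ratio was below 1 for all 12 by TPM and by TMM-scaled CPM. The share of all expressed genes below 1 was not taken, and their median log2 ratio was 0.16 by TPM and -0.12 by CPM. A ratio of at most 0.6 was found for 3 of the 12 by TPM and for 5 by CPM, against 2.88% and 5.59% of all expressed genes. By TPM the median log2 ratio of the 12 was -0.30, and the 9 that were not members lay between the threshold and Control. Srsf7, at 301 TPM on day 2 against 474 TPM in Control, and Srsf3, at 382 TPM against 590 TPM, were the nearest to it. Of 19 hnRNP genes, 3 were members and 16 were not, and the median log2 ratio was -0.14. Hnrnpll, a regulator of alternative splicing, had 47.7, 12.5, 45.6 and 64.4 TPM in Control and on days 2, 4 and 14. Hnrnpab had 138, 65.0, 155 and 239 TPM, and Hnrnpu, a scaffold protein that binds chromatin-associated RNA, had 77.4, 43.9, 79.6 and 219 TPM. All 3 were highest on day 14. Srrm2, a protein of nuclear speckles, had 174, 66.2, 141 and 178 TPM, and Khdrbs1, the RNA-binding protein Sam68, had 60.4, 29.0, 56.3 and 60.6 TPM. Pabpn1, the nuclear poly(A)-binding protein, had 74.4, 42.8, 70.1 and 70.0 TPM.

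**Figure D3:**
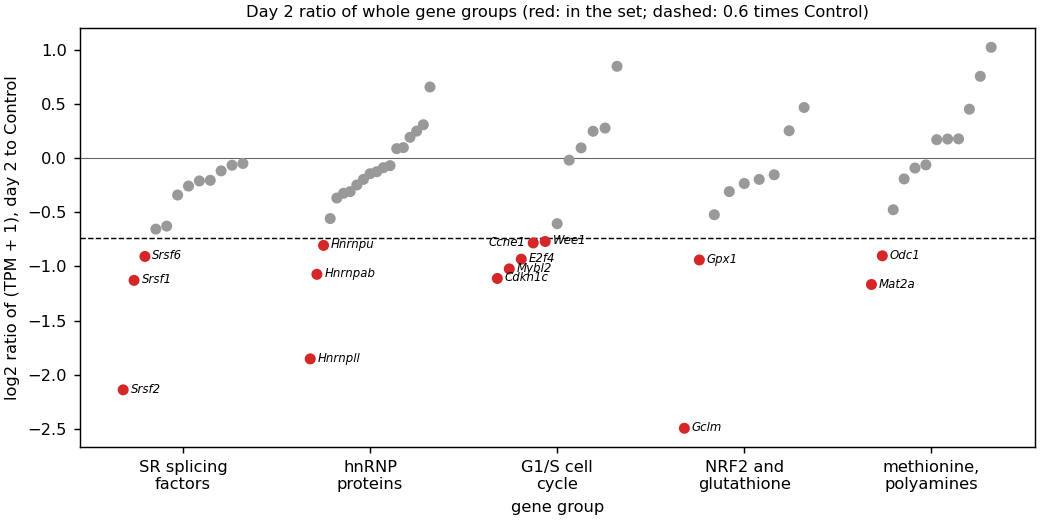
Log2 ratio of (TPM + 1), day 2 to Control, of every gene with at least 5 TPM in Control in 5 gene groups, with members of the set in red and the 0.6 threshold dashed. All 12 serine- and arginine-rich genes lie below 0, and 3 of them are members; in the other groups the genes that are not members lie on both sides of 0. The median of all expressed genes was 0.16.

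Cell cycle, redox and metabolic genes were grouped in the same way. Of 11 genes of the passage from G1 to S phase, 5 were members, against 1.66% of all expressed genes, and the group's median log2 ratio was -0.61 on day 2 and 0.04 on day 4. Ccne1, which encodes cyclin E1, had 538 TPM in Control, 312 TPM on day 2, 537 TPM on day 4 and 518 TPM on day 14. Mybl2, a transcription factor that drives late cell cycle genes, had 316, 155, 373 and 335 TPM, and E2f4, a repressor E2F, had 101, 52.3, 104 and 97.7 TPM. Wee1, the kinase that holds back mitosis, had 32.5, 18.7, 36.2 and 37.9 TPM, and Cdkn1c, an inhibitor of cyclin-dependent kinases, had 5.59, 2.05, 7.75 and 10.1 TPM. Members thus included genes that drive and genes that restrain the cycle. Rbl1 was the opposite case, at 17.5 TPM on day 2 against 9.27 TPM in Control. This group was put together after the members were seen and counted Wee1, so its share describes these 11 genes only. The lists of DNA replication and mitosis genes were not added in this way. Among 16 DNA replication genes 1 was a member, Ccne1, and the median log2 ratio on day 2 was -0.03. Among 14 mitosis genes 0 were members, 3 were at or above 1/0.6 of Control on day 2, and the median was 0.27. Of 9 genes of the NRF2 and glutathione group, Gclm and Gpx1 were members, while Gss was at 26.95 TPM on day 2 against 22.5 TPM in Control. Of 12 methionine and polyamine genes, Mat2a and Odc1 were members. Odc1, ornithine decarboxylase, the first enzyme of polyamine synthesis, had 73.5, 38.9, 90.1 and 120 TPM in Control and on days 2, 4 and 14. Sat1, which breaks polyamines down, was at 108 TPM on day 2 against 52.7 TPM in Control.

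Chromatin and transcription regulators made up a further part of the set. Suv39h2, a methyltransferase of heterochromatic histone H3, had 17.5 TPM in Control, 5.02 TPM on day 2, 14.2 TPM on day 4 and 24.7 TPM on day 14. Of 17 KRAB and silencing factors measured, it alone was at most 0.6 of Control on day 2, where 2.88% of all expressed genes were. Sap30, a subunit of the Sin3 deacetylase complex, had 191, 58.2, 208 and 246 TPM. Epop, a partner of Polycomb repressive complex and elongin, had 37.8, 16.1, 53.5 and 74.98 TPM. Of 16 Polycomb genes it alone was at most 0.6 on day 2. A count of 1 in lists this short does not set them apart from the share over all expressed genes. Both Sap30 and Epop were higher on days 4 and 14 than in Control. Hmga1, an architectural protein of AT-rich DNA, had 546, 318, 516 and 485 TPM. Ing2, a reader of methylated histone H3, had 5.30, 2.74, 5.71 and 6.17 TPM. Tfeb, the regulator of lysosomal genes, had 9.52, 4.76, 8.28 and 7.61 TPM, and Klf9 had 31.3, 15.8, 33.7 and 45.3 TPM.

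Signalling members came from several pathways. Fgf4, the main autocrine FGF of embryonic stem cells, had 51.4 TPM in Control, 18.5 TPM on day 2, 70.8 TPM on day 4 and 55.4 TPM on day 14. Dusp5, a nuclear phosphatase of ERK, had 7.6, 1.98, 9.08 and 16.5 TPM. Id3, a target of BMP signalling that blocks basic helix-loop-helix factors, had 174, 76.7, 239 and 160 TPM. Id3 and Fgf4 were highest on day 4, while Dusp5 was highest on day 14. Notum, a secreted feedback inhibitor of WNT, had 16.0, 5.33, 28.1 and 23.2 TPM, and Gbx2, a homeobox target of LIF and STAT3, had 36.9, 17.3, 38.01 and 35.2 TPM. Over the 10 FGF and ERK targets with at least 5 TPM in Control the median log2 ratio on day 2 was -0.27, and 1 was at most 0.6. Over the 13 immediate early genes it was -0.29, with 3 at most 0.6 and 3 at or above 1/0.6. Over the 9 LIF and STAT3 targets it was 0.06, with 2 at most 0.6 and 3 at or above 1/0.6. Among all expressed genes 2.88% were at most 0.6 and 7.78% at or above 1/0.6.

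Of 312 genes on 35 gene lists, 17 (5.45%) were at most 0.6 of Control on day 2, against 2.88% of all expressed genes, and 9 of these were members of the set. These 9 were Ccne1, Dusp5, Epop, Fgf4, Gbx2, Hspa8, Id3, Notum and Suv39h2. The other 8 (Actg1, Ajuba, Cdx1, Egr1, Fos, Jup, Klf5 and Meg3) did not return to the required level on both later days. None of the 18 sterol synthesis genes, the 14 elongation and Mediator genes or the 16 mitochondrial ribosome and respiratory chain genes was at most 0.6 on day 2 by TPM, where 2.88% of all expressed genes were. By CPM 1 sterol gene and 1 elongation or Mediator gene were. Such counts in lists this short do not set them apart from the share over all expressed genes. In the same library 9 of 15 Atf4 and amino acid response genes were at or above 1/0.6 of Control by TPM. So were 5 of 7 hypoxia genes and 8 of 16 glycolysis genes, where 7.78% of all expressed genes were. No member of the set came from these lists, where 1.66% of all expressed genes were members. The rule barred the genes that were higher on day 2, and lists this short would hold few members at that share. This count therefore does not set the lists apart. The median log2 ratio of these lists on day 2 was 0.77, 1.90 and 0.76 by TPM and 0.49, 1.55 and 0.44 by CPM. By CPM 1 hypoxia gene and 4 glycolysis genes were below Control. Bnip3, a mitophagy receptor induced by hypoxia, was at 251 TPM on day 2 against 40.5 TPM in Control. Ddit3, the stress factor CHOP, was at 76.1 TPM on day 2 against 6.34 TPM in Control. Whether the conditions behind these changes had a part in the members' fall was not tested.

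Some further members, picked after their values were seen, had roles in protein turnover, membrane traffic, the nucleolus or mitochondria. Usp1, a deubiquitinase of the Fanconi pathway, had 38.9, 14.3, 48.6 and 75.4 TPM in Control and on days 2, 4 and 14. Rad23b, a receptor that carries ubiquitinated proteins to the proteasome, had 64.8, 20.5, 58.5 and 64.4 TPM. Rab24, a small GTPase of autophagy, had 74.8, 23.2, 69.9 and 91.0 TPM, and Rab5a, of early endosomes, had 19.2, 7.51, 23.5 and 47.3 TPM. Rab5a on day 14 stood far above Control, whereas Rad23b ended at its starting level. Utp18, of the small-subunit processome, had 169, 60.9, 177 and 184 TPM. Gar1, of box H/ACA snoRNPs, had 146, 67.5, 140 and 133 TPM. Tomm70a, an import receptor of the outer mitochondrial membrane, had 113, 34.2, 111 and 128 TPM. Glrx5, a mitochondrial glutaredoxin of iron-sulfur cluster assembly, had 48.0, 17.8, 50.7 and 65.9 TPM, and Pink1, the kinase of damaged mitochondria, had 8.12, 4.16, 7.68 and 10.6 TPM. Gspt1, the translation termination factor eRF3a, had 116, 53.4, 114 and 142 TPM, and Noct, the nocturnin phosphatase, had 52.9, 14.4, 49.9 and 51.6 TPM.

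The thresholds cut through a continuous range. Just inside the day 2 limit were Med16 at a ratio of 0.599, Phf23 at 0.599 and Zfp386 at 0.598, and just outside were Trh at 0.602, Gm17300 at 0.603 and Nifk at 0.603. On day 4 the members nearest the limit were Tspan5 at 0.809, Zfp386 at 0.81 and Srrm2 at 0.815, and the nearest genes outside were Kazn at 0.787, Tbc1d22b at 0.77 and Nanos3 at 0.769. On day 14 they were Mospd3 at 0.803, Platr17 at 0.804 and Ddx51 at 0.813 inside, and Ina at 0.798, Slc5a11 at 0.792 and Zfp358 at 0.773 outside.

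Gene structure was not used to choose the members. The 129 members found in the RefSeq table had a median genomic span of 10860 bases, against 18660 bases for 7969 expressed genes in that table. The quartiles of the members' spans were 4435 and 29420 bases. For comparison, 327 genes with the mirror course (at least 1/0.6 of Control on day 2 and at most 1/0.8 on days 4 and 14) had a median span of 33630 bases. Transcript length differed less, with medians of 2057 bases for members and 2055 bases for all expressed genes, and 2903 bases for the mirror set. Thus the members' span was 5.08 times the transcript length at the median, and that of all expressed genes 8.95 times. Rapgef5, with a span of 243212 bases, Tspan5 with 162586, Rbpms with 147280 and Sgk1 with 117720 were the longest members.

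Genes with little intron were few. The span was at most 1.1 times the transcript length for 4 of 120 protein-coding members (3.33%) and for 0.959% of 7612 expressed protein-coding genes. These 4 were Pcbp1 and Riox1, both among the largest falls, Epop, and Rnf26. The span came from RefSeq and the transcript length from the deposited values, so their ratio is only a stand-in for intron content. It was below 1 for Pcbp1 (0.934) and Rnf26 (0.872), where the 2 sources differ. Rnf26, a ubiquitin ligase, had 16.4, 9.13, 17.3 and 23.6 TPM in Control and on days 2, 4 and 14. The span was at most 2 times the transcript length for 15 members (12.5%), against 4.43% of the expressed protein-coding genes and 5.4% of the mirror set. Besides those 4 they were Apex1, Cdkn1c, Fgf4, Gbx2, Gpx1, Id3, Mfsd5, Pip4p1, Ppp1r35, Srsf6 and Sssca1. Promoter GC content had a median of 64.0% in members, 60.7% in all expressed genes and 60.8% in the mirror set, and promoters held a median of 26 CpG in members and 21 in all expressed genes. The members with the most GC-rich promoters were Nr2f6, Gclm, Odc1 and Zbtb44, of which Gclm had 79.7% and a day 2 log2 ratio of -2.50 and Odc1 had 78.0% and a log2 ratio of -0.90. Riox1, with a day 2 log2 ratio of -2.41, had a promoter of 47.3% GC. Exon number and the GC content of transcripts were not analysed here.

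Span also went with the day 2 ratio over all expressed genes. With the genes in 5 groups of equal size by genomic span, from the shortest to the longest, the median log2 ratio of day 2 to Control was 0.04, 0.07, 0.15, 0.23 and 0.33. On day 4 the same medians lay between -0.02 and 0.01, and on day 14 between 0.04 and 0.10. Members made up 2.63%, 2.01%, 1.07%, 1.44% and 0.941% of the 5 groups, and the mirror set 2.32%, 2.13%, 3.52%, 4.39% and 7.84%. The day 2 medians went with other features as well. They ran from 0.03 to 0.34 over 5 groups of transcript length, short to long, and from 0.31 to -0.01 over 5 groups of Control TPM, low to high. The part of any of these in the members' fall was not tested.

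**Figure D4:**
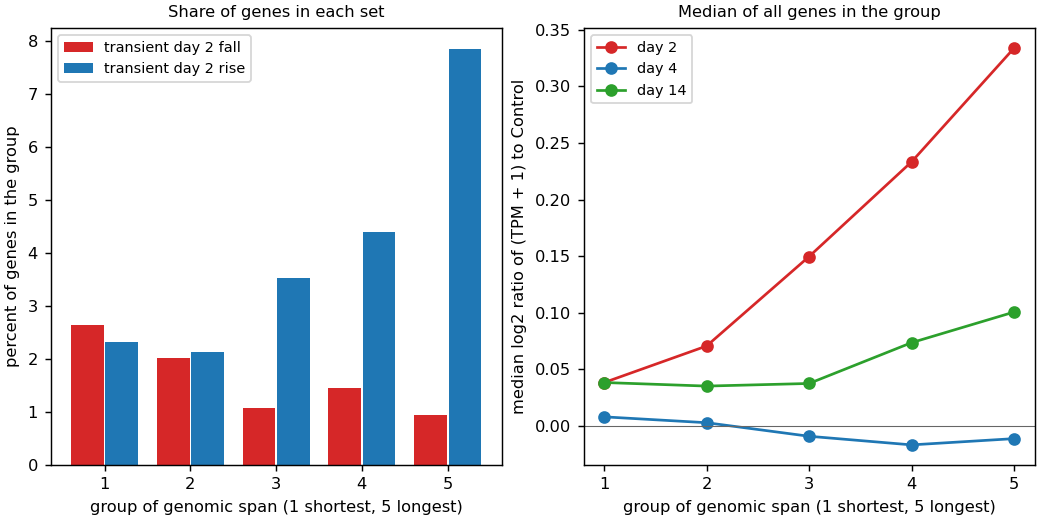
Left, percent of expressed genes in each of 5 groups of genomic span (group 1 shortest, group 5 longest) that showed the transient day 2 fall or the transient rise; right, median log2 ratio of (TPM + 1) to Control of all genes in the group on days 2, 4 and 14. The share with the fall is 2.63% in the shortest group and 0.941% in the longest, and the day 2 median runs from 0.04 to 0.33.

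Members lay on all autosomes but one and on the X chromosome. The most were on chromosomes 4 and 11, with 13 each (2.49% and 1.81% of the expressed genes there), and X had 1 of 239 expressed genes. 120 members were protein-coding, 5 were pseudogenes and 4 were long noncoding RNAs, while 5 were not in the table. Eprn, a long noncoding RNA expressed in embryonic stem cells, had 36.1, 18.3, 51.4 and 47.7 TPM in Control and on days 2, 4 and 14. Gt(ROSA)26Sor, the noncoding transcript of the locus used for transgenes, had 15.9, 8.18, 15.3 and 17.5 TPM.

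The libraries of mutant lines offered values that the rule had not used. A ratio (TPM + 1) of at least 1/0.6 to the wild type was counted as higher and one of at most 0.6 as lower. For the library labelled G9a/GLP DKO 37 members were higher than in WT TT2 (27.6%), against 13.7% of all expressed genes, and 8 were lower (5.97%), against 9.44%. In G9a CM 27 members were higher than in WT TT2 (20.1%), against 10.5% of all, and 8 were lower (5.97%), against 6.57%. The members' median log2 ratio was 0.44 in the library labelled G9a/GLP DKO, where that of all genes was 0.11, and 0.24 in G9a CM, where that of all was 0.10. For the library labelled Dnmt1/3a/3b TKO 65 members were higher than in WT J1 (48.5%), against 27.6% of all, and 5 were lower (3.73%), against 6.52%. For that labelled Dnmt3a/3b DKO 70 members were higher than in WT J1 (52.2%), against 28.5% of all, and 4 were lower (2.99%), against 5.68%. The median log2 ratios were 0.72 and 0.78 in these lines, where those of all genes were 0.36 and 0.39. The lines of each pair share their wild-type library, so the values of the pair are not independent of each other.

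The excess over the background stood on each scale, though the counts did not. By TMM-scaled CPM, 24 members exceeded WT TT2 by this margin in the library labelled G9a/GLP DKO (17.9%), against 7.8% of all expressed genes. By the same scale 17 were higher in G9a CM (12.7%, against 6.79%), 42 in the library labelled Dnmt1/3a/3b TKO (31.3%, against 16.5%) and 37 in that labelled Dnmt3a/3b DKO (27.6%, against 15.9%). Lower by CPM were 11, 13, 9 and 5 members in the same lines (8.21%, 9.7%, 6.72% and 3.73%), against 15.9%, 10.3%, 13.6% and 13.3% of all. The median log2 ratios of all genes moved with the scale, from 0.11 by TPM to -0.12 by CPM in the library labelled G9a/GLP DKO, and from 0.36 to 0.05 in that labelled Dnmt1/3a/3b TKO. Against genes weighted to the same groups of span, the share higher was 27.1% of the members and 14.1% of the expressed genes in the library with the label G9a/GLP DKO. For G9a CM these shares were 20.2% and 11.5%, with 47.3% and 28.1% in the library labelled Dnmt1/3a/3b TKO, and 53.5% and 27.8% in that labelled Dnmt3a/3b DKO, each for members first. The 327 genes of the mirror set had median log2 ratios of -0.11, -0.08, -0.08 and 0.19 in the 4 lines in that order. Control TPM was not matched, and its median was 38.5 in members and 27.9 in all expressed genes. From the lowest to the highest of 5 groups of Control TPM, the share higher in all expressed genes went from 14.5% to 11.4% (library labelled G9a/GLP DKO) and 7.14% to 13.0% (G9a CM). It went from 19.6% to 38.1% (that labelled Dnmt1/3a/3b TKO) and 22.1% to 35.8% (that labelled Dnmt3a/3b DKO).

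**Figure D5:**
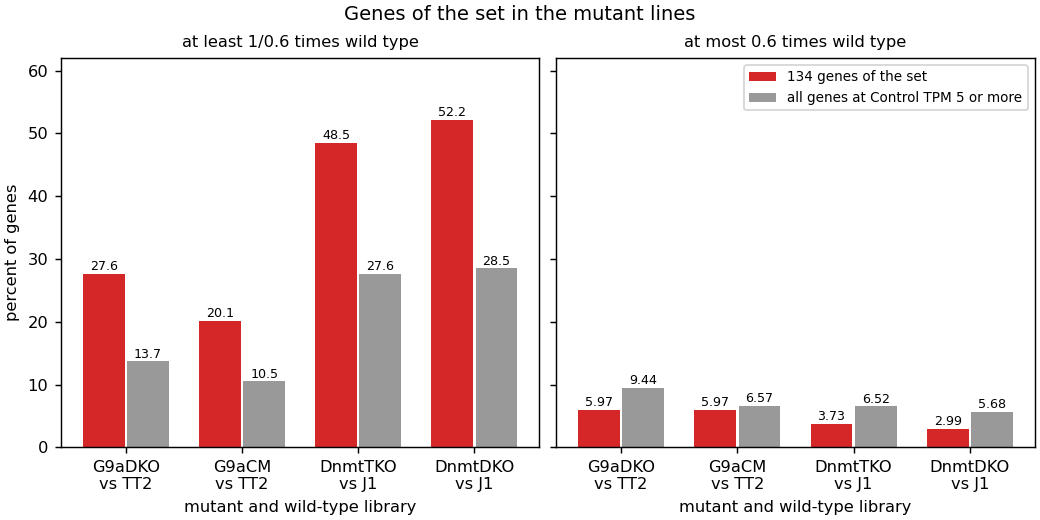
Percent of the 134 genes (red) and of all 8051 expressed genes (grey) whose (TPM + 1) was at least 1/0.6 of the wild type (left) or at most 0.6 of it (right), in 4 mutant libraries set against WT TT2 or WT J1, 1 library each; G9aDKO, DnmtTKO and DnmtDKO are the libraries labelled G9a/GLP DKO, Dnmt1/3a/3b TKO and Dnmt3a/3b DKO. On the left the red bar is the taller in every pair, such as 27.6% beside 13.7%; on the right the grey bar is.

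Single members ran to large differences. Plk3, a stress-responsive kinase, had 9.35 TPM in the library labelled G9a/GLP DKO and 6.79 TPM in G9a CM, against 1.83 TPM in WT TT2. Irgm1, an interferon-inducible GTPase, had 18.6 and 16.9 TPM in these libraries, against 4.47 TPM in WT TT2. It had 8.50 TPM in the library labelled Dnmt1/3a/3b TKO and 3.51 TPM in that labelled Dnmt3a/3b DKO, against 0.18 TPM in WT J1. Klk10, a kallikrein-related peptidase, had 13.7 TPM in the library with the label G9a/GLP DKO and 12.0 TPM in G9a CM, against 3.21 TPM in WT TT2. Id3 had 262 TPM in the library labelled G9a/GLP DKO and 326 TPM in G9a CM, against 122 TPM in WT TT2. Fgf4 had 50.6 and 31.1 TPM in the same libraries as Id3, against 16.8 TPM in WT TT2. These 5 members were named for their higher levels in both the library with the label G9a/GLP DKO and G9a CM than in WT TT2. Their lower level on day 2 of the inhibitor was set by the rule. In all, 17 members (12.7%) were higher in both of these libraries, against 5.51% of all expressed genes.

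Gclm had 85.5 TPM in the library with the label G9a/GLP DKO and 143 TPM in G9a CM, against 50.1 TPM in WT TT2, and Hspa8 had 1578 and 1730 TPM, against 725 TPM. Hspa8 had 1019 TPM in the library labelled Dnmt1/3a/3b TKO and 989 TPM in that labelled Dnmt3a/3b DKO, against 239 TPM in WT J1. Eprn had 246 and 139 TPM in the 2 libraries labelled as Dnmt mutants, against 24.7 TPM in WT J1, and Endog, a mitochondrial nuclease, had 36.1 and 28.3 TPM, against 5.89 TPM. Ccne1 had 163 and 141 TPM in the 2 libraries labelled as Dnmt mutants, against 40.0 TPM in WT J1. Lower members were fewer. Gar1 had 19.3 TPM in the library with the label G9a/GLP DKO and 19.8 TPM in G9a CM, against 36.02 TPM in WT TT2, and Desi2 had 18.3 and 15.0 TPM, against 34.1 TPM. Arl2bp, a binding partner of ARL2, had 6.64 and 4.75 TPM, against 13.0 TPM. Cdkn1c, an imprinted gene, had 4.72 TPM in the library labelled Dnmt1/3a/3b TKO and 6.4 TPM in that labelled Dnmt3a/3b DKO, against 12.8 TPM in WT J1, and Grasp had 0.92 and 0.87 TPM, against 3.21 TPM. Suv39h2 stayed between the limits in all 4 lines, at 24.1 TPM in the library with the label G9a/GLP DKO and 27.9 TPM in G9a CM, against 29.8 TPM in WT TT2, and at 23.0 and 23.1 TPM in the 2 libraries labelled as Dnmt mutants, against 15.7 TPM in WT J1.

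Control itself differed from the other wild-type libraries. The members' median level was 38.5 TPM in Control, 17.2 TPM on day 2, 42.8 TPM on day 4 and 47.5 TPM on day 14. Outside the inhibitor series it was 24.2 TPM in the library with the label G9a/GLP DKO, 22.7 TPM in G9a CM, 21.1 TPM in WT TT2, 22.5 TPM in the library labelled Dnmt1/3a/3b TKO, 22.0 TPM in that labelled Dnmt3a/3b DKO and 13.0 TPM in WT J1. In WT TT2, the same line outside the inhibitor series, 85 members were at most 0.6 of Control (63.4%), against 44.9% of all expressed genes. In WT J1 95 members were (70.9%), against 58.1% of all. Control levels had been used to choose the members, so this difference is a description. The day 2 level was nearer to WT TT2 than the Control level was for 91 members (67.9%) and for 41.5% of all expressed genes, while for day 4 these shares were 44.8% and 48%. The rule had chosen the members by a day 2 level below Control, and WT TT2 was below Control for 64.1% of all expressed genes. The larger day 2 share of the members follows in part from that choice and is a description too.

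Ybx1 had 244 TPM on day 2 and 249.4 TPM in WT TT2, where Control had 1635 TPM, and Wrnip1 had 6.30 TPM on day 2 and 8.38 TPM in WT TT2, where Control had 55.0 TPM. Psme3 had 44.5 TPM on day 2 and 57.3 TPM in WT TT2, where Control had 213 TPM. For other members the day 2 and WT TT2 levels lay far apart. Hmga1 had 318 TPM on day 2 and 4.44 TPM in WT TT2, and Mybl2 had 155 TPM on day 2 and 16.4 TPM in WT TT2. Hnrnpab was higher in WT TT2 (362 TPM) than on day 2 (65.0 TPM) or in Control (138 TPM). Whether the level of day 2 or that of Control is the usual one for TT2 cells cannot be told apart with 1 library each.

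Total expected counts were 14760140 in Control and 18212923, 18053117 and 15886733 on days 2, 4 and 14, and ran from 11436808 to 25609600 over the 10 libraries. Markers of embryonic stem cells summed to 14510 TPM on day 2 against 11120 TPM in Control, of which Dppa5a alone was 8982 TPM on day 2 against 6149 TPM. Of the 11 markers with at least 5 TPM in Control, 3 were below Control on day 2 by TPM and 6 by CPM. Among them Pou5f1 had 445 TPM on day 2 against 557 TPM in Control, and Utf1 had 801 TPM against 1292 TPM. By TPM 3 were at or above 1/0.6 of Control, where 7.78% of all expressed genes were. Sox2 had 39.7 TPM on day 2 against 22.6 TPM in Control, Esrrb 101 TPM against 54.6 TPM and Tdgf1 1759 TPM against 963 TPM. The median log2 ratio of these markers was 0.29 by TPM and -0.10 by CPM. Markers of other types were low: primitive endoderm genes summed to 17.4 TPM on day 2 against 16.9 TPM in Control, mesoderm genes to 6.28 against 6.53 TPM, fibroblast feeder genes to 31.99 against 34.4 TPM, and neural genes to 115 against 129 TPM. Trophoblast genes summed to 107 TPM on day 2 against 71.5 TPM in Control. Of these lists, 4 of 10 endoderm, 5 of 8 mesoderm, 5 of 10 feeder, 5 of 9 neural and 2 of 9 trophoblast genes were under 1 TPM in all 4 libraries. In bulk RNA fewer cells of a type and less RNA per cell cannot be told apart. Genes of the early cleavage stage summed to 34.7 TPM on day 2 against 1.37 TPM in Control.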

How the data were processed

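RNA-seq of mouse embryonic stem cells was used, 10 libraries of total RNA made by Smart-seq2 per the labels' protocols, 1 per group; the other 120 of 130 samples were not analysed here. Per the submitters' processing notes, the authors used STAR 2.5.3a and RSEM with GRCm38 (mm10); annotation release and use of strand are not given in the sources used here. Overlapping and antisense genes therefore cannot be told apart. The deposited expected counts, per the file headers, share out reads that match several genes, and 4.26% to 6.17% of genes had a count that was not whole. TPM, as deposited and per the file headers, divides by the gene's effective length in that library and by the library's sum.

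Ratios were taken on TPM with a pseudocount of 1 TPM, which understates changes of low genes. Rounded expected counts were scaled with TMM factors (edgeR 4.0.16) to CPM for count ratios and for an alternative, with exact 95% conditional binomial (Clopper-Pearson) intervals, a step checked on simulated data. Total counts of 11436808 to 25609600 per library set the precision, which is counting error only. Gene symbols were assigned by gene ID, and 147 gene IDs had no symbol. Spans and promoters came from RefSeq tables of GRCm38.p6, matched by symbol or synonym. The members, the 35 gene lists and 5 added groups were chosen with earlier results of these data known. Named genes were the 10 largest falls with a standard symbol and at least 10 TPM in Control, the 8 highest members, list members, genes at the thresholds, those highest or lowest in both lines of a pair, genes with little intron, noncoding genes, and the longest and the most GC-rich; those in the paragraphs on gene roles and on WT TT2 were chosen after their values were seen.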

Additional observations from a re-analysis of the deposited data

How the results depend on the processing

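The set of 134 genes depends on its thresholds and scale. It held 74 genes with a day 2 limit of 0.5 and 258 with a limit of 0.7. By TMM-scaled CPM it held 281 genes, of which 117 were members, and with WT TT2 in place of Control it held 33, of which 21 were members. The median log2 ratio of all expressed genes on day 2 was 0.16 by TPM and -0.12 by CPM, and genes at or above 1/0.6 were 73.0% of those past either limit by TPM and 30.4% by CPM. Members at or above 1/0.6 on day 14 numbered 8 by CPM, against 20. Listed genes at most 0.6 on day 2 numbered 38 by CPM, against 17. By CPM the members higher in the mutant lines numbered 24 (library labelled G9a/GLP DKO), 17 (G9a CM), 42 (that labelled Dnmt1/3a/3b TKO) and 37 (that labelled Dnmt3a/3b DKO), and those lower 13 in G9a CM and 9 in that labelled Dnmt1/3a/3b TKO. The cause was not tested. Of 66 alternatives, 55 stayed within the limits set for a change and 11 did not. These limits were wide. Sets of 179 genes (Control floor of 1 TPM), 92 genes (floor of 20 TPM) and 197 genes (TPM rescaled to a median ratio of 1) counted as within them. The motif shares among the 55 were only recomputed on a part of the members, so the number within limits is no measure of how stable the set is. No paired analysis was possible because each group has 1 library, and for the same reason no library could be left out. Low members are limited by depth, 5 having under 30 reads in Control.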
